A study of Arabidopsis thaliana with 23 samples.

Results

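24-nt small interfering RNAs (siRNAs) were compared between *Arabidopsis thaliana* inflorescences that lacked both ZMP and SHH1 and wild-type ones. The members were the 3 libraries labelled *zmp-2 shh1-1* and the 3 wild-type (WT) libraries of the same batch, batch B, chosen by their labels, 6 of the 23 small RNA libraries of the series. All plants were Col-0. *zmp-2* and *shh1-1* are T-DNA insertion alleles, and the *zmp-2 shh1-1* plants carried both. Batch B also held *zmp-2* (n = 3) and *zmp-2 nrpd1-3* (n = 3), and batch A held another set of WT (n = 3), *zmp-2* (n = 3), *nrpd1-3* (n = 2) and *zmp-2* with a *ZMP-YFP* transgene, of which only the last was not used here. No library of *shh1-1* alone was analysed here, so what the loss of SHH1 does by itself and what it does only together with the loss of ZMP cannot be told apart. The study's methods call the libraries of a genotype biological replicates.

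In plants, RNA polymerase IV (Pol IV) transcribes transposons and other repeats, its transcripts are made double-stranded and diced into 24-nt siRNAs, and these guide DNA methylation in the pathway called RNA-directed DNA methylation (RdDM). NRPD1 is the largest subunit of Pol IV. SHH1 is a homeodomain protein that binds methylated histone H3 tails and brings Pol IV to part of its targets, and ZMP is a protein that the study places with Pol IV. The comparison bears on how far siRNAs that need ZMP also need SHH1.

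The unit of measurement was a 100-bp window of the genome, with the number of 24-nt reads whose 5′ end falls in it. Levels are given as RPMR, reads per M (mega) 45S rRNA reads of the same library. A window was called lost or gained where edgeR's quasi-likelihood test put *zmp-2 shh1-1* and WT at least 2-fold apart with a false discovery rate (FDR, by the Benjamini-Hochberg method) no greater than 0.05. The WT libraries held 2.87 to 4.54 M reads of 21 to 24 nt and the *zmp-2 shh1-1* libraries 2.86 to 3.35 M, so the depth of both groups was alike. The 45S rRNA reads that set the scale were not: there were 0.398 to 0.726 M in WT and 0.978 to 1.53 M in *zmp-2 shh1-1*, or 0.120 ± 0.0203 and 0.307 ± 0.107 per genome-mapped read (SD, n = 3 each). Because of this gap, the median log2 fold change over all tested windows was −1.37 with the rRNA scale and −0.13 when library size was the total of mapped reads, and its part in the losses was not tested. In whole inflorescences, fewer cells that make a siRNA and less of it per cell cannot be told apart. Both scales are therefore given below, and values within a library, which need no scale, are given where they exist. The mutated genes themselves, ZMP (AT5G63700) and SHH1 (AT1G15215), had no window with enough 24-nt reads to be tested, so these small RNA libraries do not check the genotype labels.

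Plants without ZMP and SHH1 lost 24-nt siRNAs at very many windows and gained them at few. Of 106513 windows tested, 41906 were lost (39.3%) and 2257 were gained (2.12%). With total mapped reads as library size 23720 were lost and 11188 gained. Of the 41829 nuclear losses, 23696 (56.6%) were also called lost with the total-read scale, and all 2257 gains were also called gained. In depth of loss, 60.5% of the nuclear lost windows were past an 8-fold fitted change, and 4022 of them (9.62%) had no 24-nt read left in any of the 3 *zmp-2 shh1-1* libraries. Of the gained windows, 1074 (47.6%) had no read in any WT library.

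Chromosome arms and the regions around the centromeres responded to very different degrees. Pericentromeres were the gene-poor runs around each centromere and made up 18.045% of the nuclear genome, 21.5 Mb in all, and the arms were the other 97.6 Mb. In the arms 27595 of 47471 tested windows were lost (58.1%), with a median log2 fold change of −2.35. In the pericentromeres 14234 of 58338 were lost (24.4%), with a median of −0.85. With total-read scaling the medians were −1.11 and 0.38 and the lost shares 37.5% and 10.1%, so the distance between arm and pericentromere medians, −1.50 and −1.49 on the log2 scale, differed little between these scales. Without the filter on low counts the median difference reversed to 0.64 (arms −0.14, pericentromeres −0.78), and in unique windows it was −0.94. Gained windows numbered 1115 in arms (2.35%) and 1142 in pericentromeres (1.96%). The order of these gained shares turned with the scale, to 7.25% in arms and 13.2% in pericentromeres.

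Distance was taken from the gene-poor centre of each chromosome, the middle of the 100-kb bin with the lowest smoothed coding coverage. No centromere position was measured. The share of lost windows increased with this distance. It was 14.7% of 12169 windows within 0.5 Mb, 25.3% of 13723 at 1 to 1.5 Mb, 46.7% of 16707 at 2 to 3 Mb and 57.9% of 8980 at 3 to 4 Mb, and from there to the chromosome ends it was between 57.9% and 65.2%. The median log2 fold change went from −0.46 within 0.5 Mb to −2.85 beyond 10 Mb. On the total-read scale it went from 0.78 to −1.62, so that windows within 0.5 Mb lay above their WT level by this measure. All 5 chromosomes had the same order. The lost share of arm windows ranged from 52.6% on chromosome 4 to 60.2% on chromosome 3, and that of pericentromeric windows from 21.8% on chromosome 5 to 26.0% on chromosome 2.

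**Figure D1:**
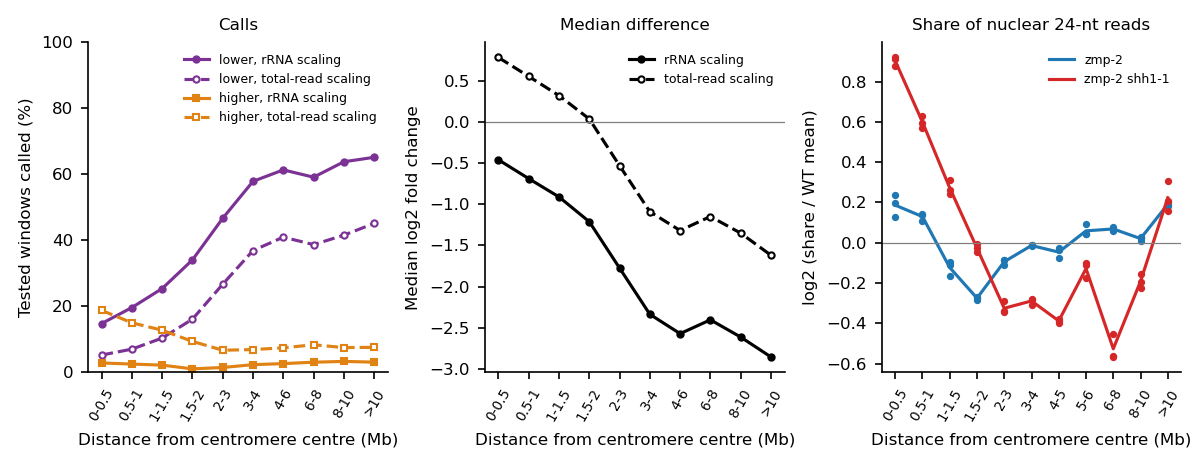
Windows and reads by distance (Mb) from the gene-poor centre of each chromosome, which the axis calls centromere centre, all 5 chromosomes together. Left, percent of tested 100-bp windows called lower or higher in *zmp-2 shh1-1* than in WT; middle, median log2 fold change, each with rRNA (filled) and total-read (open) library sizes; right, log2 ratio of each library's share of nuclear 24-nt reads (points) and the group mean (line) to the WT mean. Losses on the rRNA scale go from 14.7% within 0.5 Mb to 65.2% beyond 10 Mb. The share of reads within 0.5 Mb is higher in all 3 *zmp-2 shh1-1* libraries.

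Reads within a library showed where the remaining siRNAs lay, with no scaling between libraries. Arm windows held 66.0%, 66.9% and 66.6% of nuclear 24-nt reads in the WT libraries and 57.1%, 56.9% and 57.2% in the *zmp-2 shh1-1* libraries. The groups did not overlap, and the means, 66.5% ± 0.484 and 57.0% ± 0.164 (SD, n = 3 each), differed by −9.44 percentage points (two-sided exact permutation p = 0.1, which is the lowest that 3 against 3 can give, and 0.147 after Benjamini-Hochberg adjustment over 22 library-level comparisons). Plants lacking ZMP alone kept the arm share at 68.3%, 67.9% and 67.5%, which was 67.9% ± 0.394 (SD, n = 3) and lay above every *zmp-2 shh1-1* library by a mean of 10.9 points (difference −10.9, exact permutation p = 0.1, adjusted 0.147). Within 0.5 Mb of the gene-poor centre, the share of all nuclear 24-nt reads was 4.36% ± 0.187 for WT, 4.96% ± 0.194 for *zmp-2* and 8.15% ± 0.127 for *zmp-2 shh1-1* (SD over 3 libraries). The plot by distance also shows the reads beyond 10 Mb. They made up 11.7% ± 0.0152 for WT, 13.4% ± 0.0933 for *zmp-2* and 13.7% ± 0.725 for *zmp-2 shh1-1*. There *zmp-2* and *zmp-2 shh1-1* overlapped. The share in *zmp-2 shh1-1* was above WT although 65.2% of the windows tested there were lost on the rRNA scale (45.1% with total reads).

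The difference in arm share between *zmp-2 shh1-1* and WT was found in repeated sequence and not in unique sequence. A window counted as uniquely mappable where 90% or more of the 24-mers in it have a single place in the genome, and all others are called repeated here. In repeated windows the arm share was 56.2%, 57.9% and 57.8% in WT and 34.3%, 33.4% and 32.8% in *zmp-2 shh1-1*, a difference of −23.8 points. In uniquely mappable windows it was 72.0%, 72.4% and 72.1% in WT and 71.6%, 71.8% and 72.6% in *zmp-2 shh1-1*, and the groups overlapped with a difference of −0.21 points. *zmp-2* stood at 76.7% in each library for unique windows and at 57.6%, 56.9% and 55.8% for repeated ones. In both classes *zmp-2* lay above every *zmp-2 shh1-1* library. Reads from repeats are placed on 1 of several copies during mapping, so that the position of a repeated siRNA is less certain than that of a unique one. Counted by windows, the order of arms and pericentromeres held for unique sequence as well: 55.0% of 23982 unique arm windows and 30.8% of 19554 unique pericentromeric windows were lost, beside 61.3% of 23489 and 21.2% of 38784 repeated ones.

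**Figure D2:**
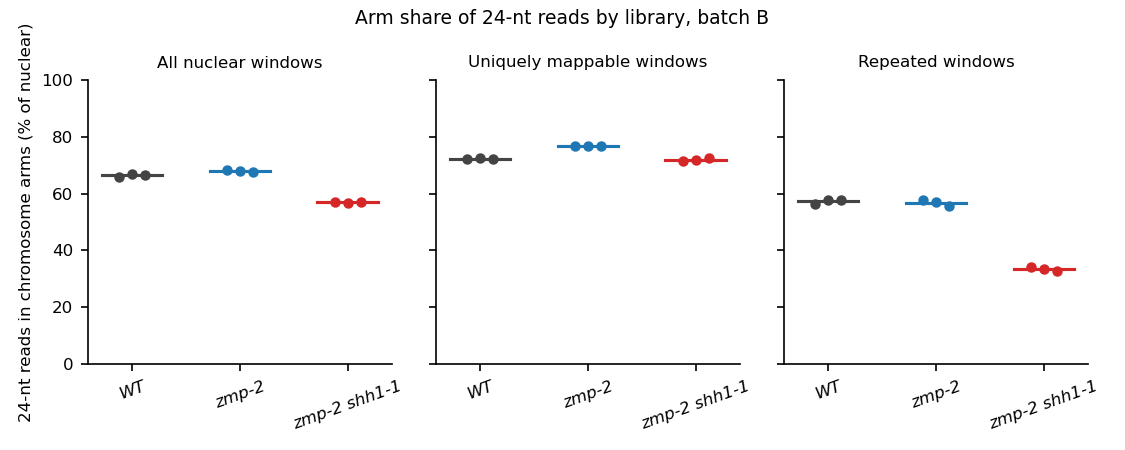
Percent of nuclear 24-nt reads that lie in chromosome arms, for each batch B library (points) with the group mean (line), n = 3 per genotype. Over all windows WT is at 66.0 to 66.9% and *zmp-2 shh1-1* at 56.9 to 57.2%; in uniquely mappable windows the genotypes are at 72.0 to 72.4% and 71.6 to 72.6%, and in repeated windows at 56.2 to 57.9% and 32.8 to 34.3%.

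Summed abundance per Mb gave the same picture on the rRNA scale. In arms it was 25194, 36861 and 26687 RPMR per Mb in the WT libraries and 10868, 8914 and 5672 in the *zmp-2 shh1-1* libraries, a log2 ratio of −1.83. Pericentromeres held 59050, 82765 and 60862 RPMR per Mb in WT and 37086, 30716 and 19295 in *zmp-2 shh1-1*, a log2 ratio of −1.25. In both compartments every mutant library lay below every WT library (exact permutation p = 0.1 each, adjusted 0.147). As RPM, per M mapped reads, the arm log2 ratio was −0.52, again without overlap, while the pericentromeric one was 0.06 with overlapping groups. Arms were thus lower on both scales, and the direction for pericentromeres taken whole depended on the scale. In uniquely mappable windows alone the rRNA-scale log2 ratios were close, −1.63 in arms and −1.61 in pericentromeres. In repeated windows they were −2.37 and −0.95, so the gap between the compartments was found in repeated windows.

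Chromosome 5 shifted most. Its arm share was 75.2% ± 0.480 for WT, 71.5% ± 0.343 for *zmp-2* and 58.6% ± 0.878 for *zmp-2 shh1-1* (SD over 3 libraries). From WT to *zmp-2 shh1-1* this was a difference of −16.6 points, where the other chromosomes differed by −6.20 to −8.40 points. Part of the chromosome 5 difference was thus present in *zmp-2* alone, whereas on every other chromosome the *zmp-2* mean lay above that of WT. Among 1193 nuclear bins of 100 kb, the bin whose share of 24-nt reads increased most between WT and *zmp-2 shh1-1* lies in the pericentromere of this chromosome, at chr5:11200001-11300000, and was singled out after its values were seen. It held 0.193 to 0.226% of nuclear 24-nt reads in WT, 1.05 to 1.11% in *zmp-2* and 1.16 to 1.53% in *zmp-2 shh1-1*. The level there was 8436, 10536 and 7554 RPMR in WT and 21497, 21545 and 14794 RPMR in *zmp-2 shh1-1*, beside 43681, 38406 and 28061 RPMR in *zmp-2*. Of 323 windows tested in the bin, 90 were gained and 17 lost, and 19.4% of its windows are uniquely mappable. In *zmp-2 nrpd1-3*, which lacks Pol IV function, the whole bin had 0.907 to 4.30 RPMR. Without this bin the chromosome 5 difference was −13.0 points and the nuclear one −8.79 points. The bins ranked next by increase in share lie in arms, at chr4:13900001-14000000, chr5:22700001-22800000, chr1:18200001-18300000 and chr3:20000001-20100000.

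In arms, losses were frequent beside genes. There, 13288 of 19319 windows that lie outside genes but within 1 kb of one were lost (68.8%, median log2 fold change −3.04), as were 6416 of 9788 intergenic windows (65.5%, −2.66). Introns were close to these with 1346 of 2215 (60.8%). Coding sequence had 1547 of 3610 windows lost (42.9%, −1.43) and annotated pseudogenes, which in this annotation include many transposon remnants, 3717 of 10137 (36.7%, −1.46). The order differed near the centromere, where intron windows (41.0% of 918) and UTR windows (42.8% of 369) had the larger lost shares, windows within 1 kb of a gene had 29.4% of 17646 lost, and pseudogenes had 3563 of 24763 lost (14.4%, −0.47). On the total-read scale the arm medians were −1.79 within 1 kb of a gene, −1.40 in intergenic windows, −0.17 in coding sequence and −0.21 in pseudogenes. That of pericentromeric pseudogenes turned to 0.76, with 4.34% lost and 18.1% gained. Gains had another distribution. They made up 7.33% of arm UTR windows (88 of 1200) and 5.90% of arm coding windows (213 of 3610), but 1.63% of arm windows within 1 kb of a gene (315 of 19319). With total reads these gained shares were 17.2%, 15.0% and 5.16%.

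Base composition followed the same division. The median GC content of lost windows was 33% in arms and 36% in pericentromeres, against 39% and 41% in tested windows that were not called. Gained windows had 38% in arms and 43% in pericentromeres. Arm gains lay mostly in unique sequence (74.7% of 1115 windows, where 50.5% of tested arm windows are unique), whereas pericentromeric gains lay mostly in repeats (14.9% unique, against 33.5% of tested windows). These are descriptions of windows that share libraries and neighbours, and no test was made on them.

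Joining called windows no more than 200 bp apart gave 9816 lost loci led by an arm window and 6274 led by a pericentromeric window. The median lost locus had 2 windows in arms and 1 in pericentromeres, and 48 loci in each compartment were longer than 2 kb. The 685 arm and 781 pericentromeric gained loci were shorter, with 67.2% and 75.8% of them being a lone window and none longer than 2 kb. For each direction and compartment, the 5 loci whose leading window had the smallest FDR without overlap between the groups, and the longest locus, were then followed through every library, 23 windows in all. Coordinates are those of TAIR10, and the sequences printed are the forward strand of the RefSeq assembly TAIR10.1, whose nuclear chromosomes have the same lengths.

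The strongest losses in arms were nearly complete and were found beside genes, in unique sequence. The first 2 are printed here because they lost the most siRNAs at the smallest FDR, in sequence that is unique in the genome:
chr3:10008601-10008700: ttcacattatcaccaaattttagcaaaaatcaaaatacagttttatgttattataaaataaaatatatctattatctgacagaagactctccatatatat
chr3:10753301-10753400: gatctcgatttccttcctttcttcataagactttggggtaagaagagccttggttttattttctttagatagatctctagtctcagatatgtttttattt

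The window at chr3:10008601-10008700, 427 bp from AT3G27140, had 5958, 9910 and 5863 RPMR in the WT libraries and 8.18, 15.5 and 5.87 RPMR in *zmp-2 shh1-1*. With *zmp-2* alone it had 9421, 8248 and 5752 RPMR, overlapping WT. The log2 fold change between *zmp-2 shh1-1* and WT was −9.52 ± 0.613 (SE, FDR 2.7e-28). At chr3:10753301-10753400, in a locus 798 bp from the tRNA gene AT3G28685, WT had 2863, 4053 and 2305 RPMR and *zmp-2 shh1-1* 8.18, 7.30 and 4.57 RPMR (log2 fold change −8.85 ± 0.600, FDR 1.6e-26). Here *zmp-2* had 2950, 2430 and 1337 RPMR, overlapping WT.

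Ranked next in arms was a window 211 bp from *NLP1* (AT2G27450), a gene for an enzyme of polyamine synthesis. It had 1145, 1902 and 1196 RPMR in WT, 1199, 1042 and 671 in *zmp-2* and 1.02, 3.65 and 1.31 in *zmp-2 shh1-1*, no more than 4 reads in any of the latter (log2 fold change −9.39 ± 0.647, FDR 4.6e-26). Those ranked 4 and 5, 277 bp from AT5G60964 and 794 bp from *CBL8* (AT1G64480, a calcineurin B-like calcium sensor), had log2 fold changes of −9.40 ± 0.652 and −9.30 ± 0.649. All 5 windows lie outside genes within 1 kb of one, and all 5 are uniquely mappable. All 5 were measured in batch A without being called in *zmp-2*, with log2 fold changes there from −0.09 to 0.36. Of all 27595 lost arm windows, 13288 lie within 1 kb of a gene and 47.8% are uniquely mappable. Only 13.7% of those that batch A could test were called lower in its *zmp-2*, so not being called was usual.

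Pericentromeres also held windows that were nearly emptied, although a smaller share of the tested windows of this compartment was lost. The leading windows of the first 2 loci are printed because they lie in uniquely mappable sequence within this compartment:
chr5:13855301-13855400: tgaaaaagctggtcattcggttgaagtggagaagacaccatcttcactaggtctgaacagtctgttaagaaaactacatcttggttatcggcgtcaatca
chr4:5497501-5497600: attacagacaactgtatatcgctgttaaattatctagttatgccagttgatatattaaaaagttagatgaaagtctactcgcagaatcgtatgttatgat

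The window at chr5:13855301-13855400, 336 bp from *IQD33* (AT5G35670, of a family of calmodulin-binding proteins), had 1334, 2274 and 1527 RPMR in WT and 6.13, 5.47 and 5.22 RPMR in *zmp-2 shh1-1* (log2 fold change −8.23 ± 0.589, FDR 2.9e-25). The intergenic window at chr4:5497501-5497600 had 582, 812 and 632 RPMR in WT and 1.02, 0.912 and 1.31 RPMR in *zmp-2 shh1-1*, which is 1, 1 and 2 reads (log2 fold change −9.08 ± 0.664, FDR 1.1e-24). Both stayed high in *zmp-2*, with 1795, 1660 and 996 RPMR in the former and 690, 589 and 434 in the latter. Beside *DES-1-LIKE* (AT4G04930, a sphingolipid desaturase gene, 253 bp away) a window had 926, 1332 and 986 RPMR in WT and 3.07, 4.56 and 2.61 RPMR in *zmp-2 shh1-1* (log2 fold change −8.27 ± 0.605, FDR 1.1e-24). The fourth window, 70 bp from AT3G44210, kept 2 reads in all 3 *zmp-2 shh1-1* libraries together against 921 in WT, and the ratio of *zmp-2 shh1-1* to WT was at most 0.00341 by its 95% exact counting interval. The last, 713 bp from the 20S proteasome gene *PAA1* (AT5G35590), had a log2 fold change of −8.17 ± 0.631. None of these 5 was called in batch A *zmp-2* either. Of all lost pericentromeric windows that batch A could test, 25.8% were called lower there.

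The longest lost loci behaved differently, being low already without ZMP alone. In arms the longest was 8500 bp at chr2:6970301-6978800, with 74 lost windows around the annotated gene AT2G16030. Its leading window, at chr2:6974701-6974800, had 718, 1058 and 753 RPMR in WT, 74.0, 59.5 and 52.0 in *zmp-2* and 52.1, 37.4 and 30.7 in *zmp-2 shh1-1* (log2 fold change −4.40 ± 0.479, FDR 1.3e-14). The longest pericentromeric one was 8400 bp at chr3:15634901-15643300 with 68 lost windows. There the leading window had 679, 832 and 655 RPMR in WT, 102, 97.8 and 109 in *zmp-2* and 92.0, 87.5 and 54.8 in *zmp-2 shh1-1* (log2 fold change −3.21 ± 0.451, FDR 6.6e-10). Both leading windows were hypo-DSRs of *zmp-2* in batch A, that is, differential small RNA regions (DSRs) lower in the mutant.

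Gained windows in arms came up from nothing or nearly nothing, several of them inside genes. Those ranked 1 and 3 are printed because they lie in coding sequence, where WT made almost no 24-nt siRNA:
chr5:7372601-7372700: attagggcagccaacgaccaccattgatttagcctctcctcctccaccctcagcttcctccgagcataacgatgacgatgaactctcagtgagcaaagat
chr5:18065201-18065300: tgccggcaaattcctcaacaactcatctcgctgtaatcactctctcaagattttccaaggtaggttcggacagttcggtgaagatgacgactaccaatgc

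The window in AT5G22270, at chr5:7372601-7372700, had 0, 1 and 0 reads in WT and 243, 298 and 248 reads in *zmp-2 shh1-1*, or 248, 272 and 162 RPMR. The ratio to WT was 342, with a 95% exact counting interval from 61.1 to 13509 because of the lone WT read (FDR 4e-17). With *zmp-2* alone it had 181, 227 and 203 RPMR, overlapping *zmp-2 shh1-1*. The window in AT5G44770, at chr5:18065201-18065300, had no read in any WT library and 124, 82.1 and 90.7 RPMR in *zmp-2 shh1-1*, at least 50.5-fold higher than a floor of 3 reads over the 3 WT libraries (FDR 9.8e-14). It belongs to the longest gained arm locus, 1200 bp with all 12 windows gained, and had 139, 155 and 117 RPMR in *zmp-2*.

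Between these in rank, a window at the edge of the lncRNA gene AT2G04015 had 6.89, 5.03 and 2.28 RPMR in WT and 280, 172 and 290 RPMR in *zmp-2 shh1-1* (log2 fold change 5.59 ± 0.603, FDR 7.9e-15). Those ranked 4 and 5, an intergenic window 2830 bp from *CLE18* (AT1G66145, of a family of signalling peptides) and a window in the lncRNA gene AT4G06825, had no WT read and were at least 41.6-fold and at least 39.4-fold higher than the same floor. All 5 were hyper-DSRs of *zmp-2* in batch A, that is, higher in the mutant, as were 63.9% of all gained arm windows tested there.

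Some gained windows near the centromeres had sequence in common. Of the 5 first ones, 2 on chromosome 1 share a run of 44 bases and 2 on chromosome 5 share a run of 35 bases, given in capitals:
chr1:16219001-16219100: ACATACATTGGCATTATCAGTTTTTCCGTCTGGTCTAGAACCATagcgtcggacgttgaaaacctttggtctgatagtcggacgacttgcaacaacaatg
chr1:16187501-16187600: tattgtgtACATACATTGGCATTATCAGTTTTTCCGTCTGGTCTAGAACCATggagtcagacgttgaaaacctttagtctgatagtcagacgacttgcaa
chr5:12918901-12919000: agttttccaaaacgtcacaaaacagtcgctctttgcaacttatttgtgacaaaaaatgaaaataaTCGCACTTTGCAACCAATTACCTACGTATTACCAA
chr5:12877501-12877600: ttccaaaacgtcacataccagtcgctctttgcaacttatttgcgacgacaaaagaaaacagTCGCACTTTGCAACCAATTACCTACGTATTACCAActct

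A read from a shared run could be placed on either copy, so each pair is not a pair of separate observations. The first, in AT1G43090, had 1 read in each WT library and 1001, 536 and 318 RPMR in *zmp-2 shh1-1*, a ratio of 297 with a 95% exact counting interval from 101 to 1439 (FDR 6.9e-21). Its relative in the pseudogene AT1G43050 had 15.2, 22.6 and 27.4 RPMR in WT and 474, 372 and 165 in *zmp-2 shh1-1* (log2 fold change 3.98 ± 0.512, FDR 2.4e-11). On chromosome 5, the window at chr5:12918901-12919000 had 8.27, 17.6 and 0 RPMR in WT and 227, 130 and 240 RPMR in *zmp-2 shh1-1* (log2 fold change 4.54 ± 0.577, FDR 1.4e-11), and in *zmp-2* its libraries were far apart at 185, 251 and 10.4 RPMR. Its relative at chr5:12877501-12877600 had 0, 2.51 and 0 RPMR in WT and 119, 83.0 and 47.0 in *zmp-2 shh1-1*. The last window, in AT5G34885, had no WT read and was at least 33.2-fold higher than the floor. None of the 5 is uniquely mappable by the 90% limit, and all 5 were hyper-DSRs of *zmp-2* in batch A. Of all gained pericentromeric windows 14.9% are uniquely mappable, and 39.4% of those tested in batch A were hyper-DSRs. The longest gained pericentromeric locus was 1500 bp at chr2:5204901-5206400. Its leading window was not called in batch A, and in batch B it had 19.3, 2.51 and 22.8 RPMR in WT, 187, 249 and 130 in *zmp-2* and 294, 211 and 79.6 in *zmp-2 shh1-1* (log2 fold change 3.64 ± 0.534, FDR 3.1e-09).

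**Figure D3:**
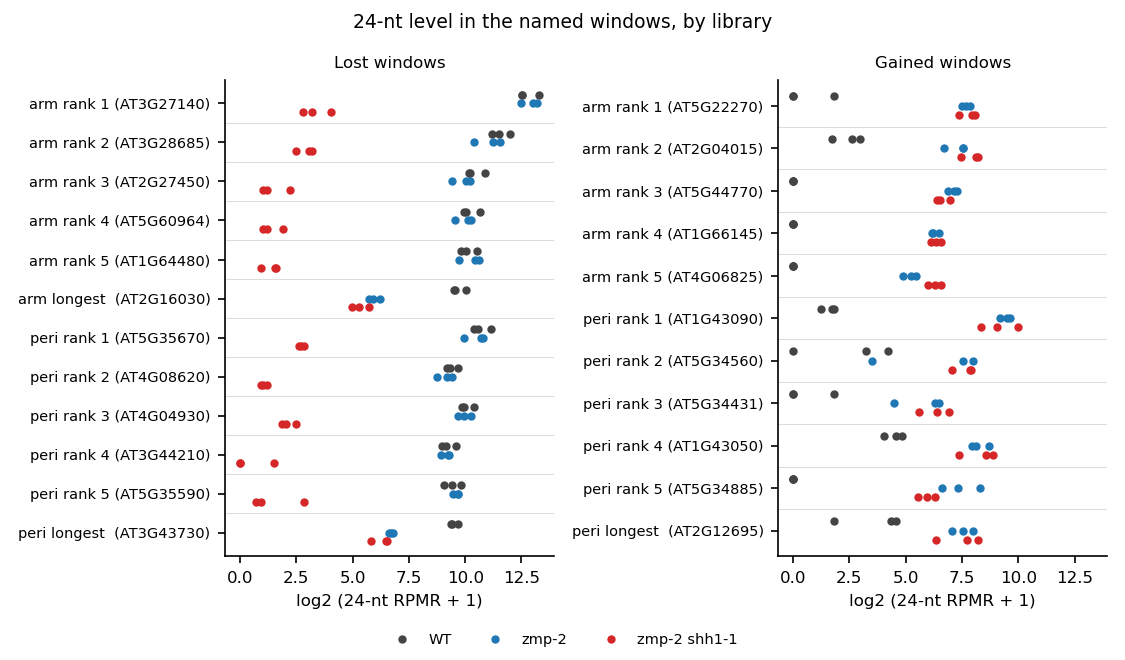
Level of 24-nt siRNAs, as log2 of RPMR plus 1, in each library (points) of WT, *zmp-2* and *zmp-2 shh1-1* at the 12 named lost windows (left) and the 11 named gained windows (right), n = 3 per genotype. Labels give compartment, rank by FDR and the overlapping or nearest gene. The 10 top-ranked lost windows overlap WT in *zmp-2* and are far lower in *zmp-2 shh1-1*, while the longest lost loci and the gained windows already lie apart from WT in *zmp-2*, except 1 *zmp-2* library at pericentromeric rank 2.

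How far the lost and gained windows were those of *zmp-2* was asked with batch A, whose WT and *zmp-2* libraries share none with batch B. Of 147916 nuclear windows tested in batch A, 8995 were hypo-DSRs (6.08%) and 3691 hyper-DSRs (2.495%). Among windows lost in *zmp-2 shh1-1* that batch A could test, 3737 of 27367 in arms (13.7%) and 3609 of 13962 in pericentromeres (25.8%) were such hypo-DSRs. Among gained ones, 636 of 995 in arms (63.9%) and 407 of 1034 in pericentromeres (39.4%) were hyper-DSRs. Most losses thus fell on windows that batch A did not call in *zmp-2*, which is no evidence that *zmp-2* left each of them unchanged.

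Read in the other direction, the *zmp-2* hypo-DSRs of batch A were called lost in *zmp-2 shh1-1* at 3737 of 4078 tested in arms (91.6%, where 58.1% of all arm windows were lost) and 3609 of 4607 in pericentromeres (78.3%, where 24.4% were). With total-read library sizes 55.4% and 38.6% were lost. Their mean level in arms was 149, 218 and 158 RPMR per window in WT, 61.3, 58.2 and 45.3 in *zmp-2* and 46.4, 36.5 and 23.0 in *zmp-2 shh1-1*. In pericentromeres it was 84.8, 121 and 89.6 RPMR in WT, 31.5, 28.1 and 21.98 in *zmp-2* and 27.2, 21.8 and 13.9 in *zmp-2 shh1-1*. The log2 ratio of *zmp-2 shh1-1* to WT was −2.35 in arms and −2.27 in pericentromeres, without overlap (exact permutation p = 0.1 each, adjusted 0.147). On the rRNA scale *zmp-2 shh1-1* and *zmp-2* overlapped in both, at log2 ratios of −0.69 and −0.41 (exact permutation p = 0.2 each, adjusted 0.21). As RPM this direction turned, with 7.67, 7.75 and 7.55 for *zmp-2* and 10.7, 9.50 and 9.85 for *zmp-2 shh1-1* in arms, above *zmp-2* in every library but below the 20.3, 21.3 and 20.2 of WT. Pericentromeric hypo-DSRs had the same order as RPM.

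At the *zmp-2* hyper-DSRs of batch A the relation to WT depended on the scale in arms. In pericentromeres their mean level was 14.7, 19.3 and 13.8 RPMR per window in WT, 54.3, 51.9 and 38.7 in *zmp-2* and 40.8, 34.2 and 24.03 in *zmp-2 shh1-1*. *zmp-2 shh1-1* lay above WT there without overlap (log2 ratio 1.04, exact permutation p = 0.1, adjusted 0.147) and overlapped *zmp-2*. In arms it was 15.4, 22.4 and 15.5 RPMR in WT, 62.1, 55.4 and 40.5 in *zmp-2* and 29.5, 23.3 and 15.7 in *zmp-2 shh1-1*. On this scale *zmp-2 shh1-1* overlapped WT there (log2 ratio 0.34, exact permutation p = 0.2, adjusted 0.21) and lay below *zmp-2* in every library (log2 ratio −1.23, exact permutation p = 0.1, adjusted 0.147). As RPM the same arm windows had 2.101, 2.18 and 1.97 in WT, 7.78, 7.38 and 6.74 in *zmp-2* and 6.83, 6.06 and 6.74 in *zmp-2 shh1-1*, which then lay above WT in every library and overlapped *zmp-2*. Pericentromeric ones were also above WT as RPM, and there *zmp-2 shh1-1* lay above *zmp-2* in every library. Window by window the arm set was mixed: of 1708 tested, 636 were gained (37.2%) and 372 lost (21.8%), beside 407 gained (30.6%) and 80 lost (6.01%) of 1331 in pericentromeres, where 2.12% of all windows were gained. On the total-read scale 60.8% of the arm set and 68.9% of the pericentromeric set were gained.

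**Figure D4:**
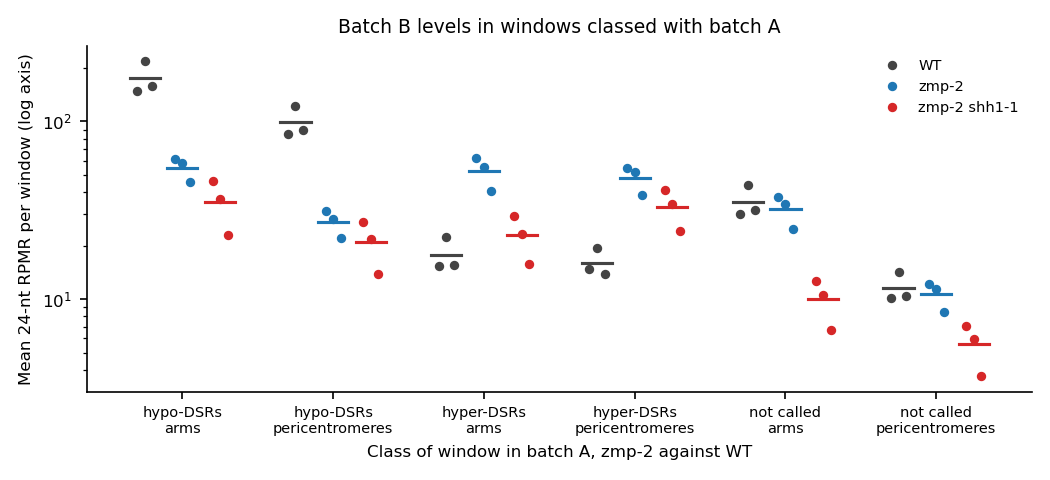
Mean 24-nt RPMR per window (log axis) in batch B libraries (points; lines are means, n = 3 per genotype) over windows classed by *zmp-2* against WT in batch A. On this rRNA scale *zmp-2 shh1-1* (15.7 to 29.5) overlaps WT (15.4 to 22.4) in arm hyper-DSRs, whereas as RPM it lies above WT; in arm windows that batch A tested and did not call, it is below WT on both scales.

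Arm windows that batch A tested and did not call were lower in *zmp-2 shh1-1* on both scales. They averaged 35.2 ± 7.56 RPMR for WT, 32.2 ± 6.54 for *zmp-2* and 9.97 ± 3.00 for *zmp-2 shh1-1* (SD over 3 libraries), and 23258 of 40285 tested were lost (57.7%). Pericentromeric ones averaged 11.6 ± 2.26 RPMR for WT, 10.6 ± 1.97 for *zmp-2* and 5.57 ± 1.73 for *zmp-2 shh1-1*, with 10273 of 48526 lost (21.2%). These shares are close to those of all arm and pericentromeric windows. As RPM the arm set had 4.09, 4.28 and 4.04 in WT and 2.92, 2.74 and 2.88 in *zmp-2 shh1-1*. The pericentromeric set turned, with 1.39, 1.38 and 1.32 RPM in WT and 1.64, 1.54 and 1.58 in *zmp-2 shh1-1*, and with 8.23% lost and 13.0% gained by total-read library sizes.

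Nearly all lost windows were also lower without NRPD1. Of the nuclear windows lost in *zmp-2 shh1-1* that could be tested for *nrpd1-3* against WT in batch A, 25638 of 25677 in arms (99.8%) and 12668 of 12673 in pericentromeres (99.96%) were lower in *nrpd1-3*, as were 99.1% of all nuclear windows tested there. Gained windows had too few WT reads for that test in most cases, but in *zmp-2 nrpd1-3* they averaged 0.0689 ± 0.00663 RPMR in arms and 0.00292 ± 0.00219 in pericentromeres (SD, n = 3 each), beside 24.2 ± 7.26 and 35.6 ± 8.06 in *zmp-2 shh1-1*. The *zmp-2 nrpd1-3* libraries held 6.04 to 7.72 M 45S rRNA reads against 1.18 to 1.39 M mapped reads, which lowers their RPMR. Many windows that depended on Pol IV were not called in *zmp-2 shh1-1*. Of windows that were lower in *nrpd1-3*, 69.2% of 37030 in arms and 35.3% of 35861 in pericentromeres were lost in *zmp-2 shh1-1*, and 11171 and 22694 were not called in either direction. With total reads 46.3% and 15.4% were lost.

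Other size classes were measured in the same libraries. The 24-nt share of 21- to 24-nt reads was 59.97%, 61.2% and 60.3% in WT, 61.5%, 60.8% and 59.6% in *zmp-2* and 55.2%, 54.2% and 52.5% in *zmp-2 shh1-1*. The last group lay below both others without overlap, by −6.53 points against WT and −6.65 against *zmp-2* (exact permutation p = 0.1 each, adjusted 0.147). The 23-nt share was also lower, 8.32% ± 0.429 against 13.4% ± 0.620 in WT, and those of 21 nt (21.3% ± 0.872 against 13.8% ± 0.730) and 22 nt (16.4% ± 0.856 against 12.3% ± 0.253) were higher (SD, n = 3 each).

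By windows, the 23-nt class had the largest lost share of the 4 lengths, with 22057 of 31948 tested windows lower (69%) and 404 higher (1.26%). Of 25738 windows tested for 22 nt, 11532 were lower (44.8%) and 724 higher (2.81%), and of 16112 for 21 nt, 7032 were lower (43.6%) and 565 higher (3.51%). Arms led in each length. On the rRNA scale 81.4% of arm and 52.6% of pericentromeric windows were lower for 23 nt. For 22 nt these shares were 62.5% and 28.9%, and for 21 nt 56.3% and 30.1%. With total reads they were 62.7% and 30.4% for 23 nt, 42.3% and 14.8% for 22 nt, and 35.5% and 14.6% for 21 nt. On that scale more pericentromeric windows were higher than lower for 22 nt (23.8% higher) and 21 nt (26.3% higher). The arm share of reads, in contrast, was 58.5% ± 0.675 in *zmp-2 shh1-1* and 67.5% ± 0.513 in WT for 23 nt, but 86.7% ± 0.257 and 85.5% ± 0.299 for 21 nt (SD, n = 3 each), a class whose reads come largely from miRNA genes. At arm windows that lost 24-nt siRNAs, miRNA genes left out, mean 24-nt level went from 80.1 ± 17.4 RPMR per window in WT to 12.3 ± 4.11, that of 23 nt from 18.01 ± 3.74 to 1.80 ± 0.621, and that of 21 nt from 7.88 ± 1.62 to 2.20 ± 0.821 (SD, n = 3 each).

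At 4 known RdDM target genes with 1 kb upstream, 23 windows could be tested, of which 10 were lost (43.5%, near the 39.3% of all windows) and none gained on the rRNA scale, and 8 lost and 2 gained on the total-read scale. *FWA* (AT4G25530), a homeodomain gene silenced by methylated repeats at its promoter, had 171, 266 and 160 RPMR in WT, 222, 219 and 143 in *zmp-2* and 21.5, 12.8 and 9.14 in *zmp-2 shh1-1*. Of 5 windows tested 4 were lost, the lowest with a log2 fold change of −6.25 ± 0.900 (SE, FDR 1.6e-09). *SDC* (AT2G17690), an F-box gene silenced through tandem repeats, had 601, 980 and 660 RPMR in WT and 259, 181 and 113 in *zmp-2 shh1-1*, with 4 of 11 windows lost and *zmp-2* at 866, 750 and 533. On the total-read scale 2 windows of *SDC* were lost and 2 gained.

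*ROS1* (AT2G36490), a DNA demethylase gene, had 24.8, 25.1 and 22.8 RPMR in WT and 11.2, 6.38 and 2.61 in *zmp-2 shh1-1*, with 1 of 2 tested windows lost. *QQS* (AT3G30720), a gene whose expression varies with its methylation, had 48.2, 77.9 and 54.8 RPMR in WT and 25.6, 23.7 and 9.79 in *zmp-2 shh1-1*, with 1 of 5 lost. For all 4 genes the *zmp-2 shh1-1* libraries lay below every WT library on this scale, and as RPM this held for *FWA*, *SDC* and *QQS* while *ROS1* overlapped WT.

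Loci that the study shows as examples of siRNA change without ZMP went different ways when SHH1 was absent too. AT2G20465 and AT4G11485 had no 24-nt read in any WT library. They reached 13.3, 9.12 and 4.57 RPMR and 42.9, 26.4 and 17.0 RPMR in *zmp-2 shh1-1*, with 1 of 1 and 3 of 3 tested windows gained, beside 10.9, 14.9 and 13.0 and 21.8, 34.0 and 33.8 RPMR in *zmp-2*. AT3G07775, by contrast, had 485, 444 and 388 RPMR in *zmp-2* but 4.09, 4.56 and 1.31 RPMR in *zmp-2 shh1-1*, near the 2.76, 0 and 0 RPMR of WT, and no window reached the count needed for a test. AT5G43755 had 640, 531 and 481 RPMR in *zmp-2*, but 3.07, 3.65 and 1.31 RPMR without SHH1 as well, and 2.76, 20.1 and 25.1 in WT, with its 1 tested window lost (log2 fold change −2.87 ± 0.990, FDR 0.013, and −1.61, FDR 0.22, on the total-read scale).

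The study also made RNA blot templates for 4 sites, 2 with fewer and 2 with more siRNAs in *zmp-2*, each placed here by its primers at a single position. The template of hyposiR1, 251 bases at chr3:11042700-11042950, is printed as the sequence whose siRNAs were probed, with the primer positions in capitals:
hyposiR1: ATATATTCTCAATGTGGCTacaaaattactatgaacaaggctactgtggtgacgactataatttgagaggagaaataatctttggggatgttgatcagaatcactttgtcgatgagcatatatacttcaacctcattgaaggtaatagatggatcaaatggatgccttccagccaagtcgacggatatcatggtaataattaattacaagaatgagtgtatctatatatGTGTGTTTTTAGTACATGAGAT

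It had 2803, 3716 and 2807 RPMR in WT, 622, 604 and 601 in *zmp-2* and 653, 525 and 234 in *zmp-2 shh1-1*, and all 4 of its windows were lost. hyposiR2, at chr4:6275900-6276200, had 2167, 3679 and 2389 RPMR in WT, 137, 125 and 91.1 in *zmp-2* and 138, 81.2 and 59.4 in *zmp-2 shh1-1*, again with 4 of 4 windows lost. On the total-read scale 4 windows of hyposiR1 and 2 of hyposiR2 were lost. At both, *zmp-2 shh1-1* overlapped *zmp-2* as RPMR and lay above it in every library as RPM. The sites with more siRNAs parted: hypersiR1, at chr2:145650-146649 in an arm, had 0, 0 and 6.85 RPMR in WT, 21.8, 34.0 and 28.6 in *zmp-2* and 22.5, 18.2 and 4.57 in *zmp-2 shh1-1*, with 1 of 2 tested windows gained. hypersiR2, at chr1:16269501-16270000 in a pericentromere, had 12.4, 15.1 and 25.1 RPMR in WT, 80.5, 80.8 and 36.4 in *zmp-2* and 1.02, 1.82 and 0 in *zmp-2 shh1-1*, with its 1 tested window lost. From its blots of such sites, the study reports similar siRNA levels in plants lacking ZMP alone and in plants lacking ZMP and SHH1. From its sequencing, it reports mildly lower levels over its hyper-DSRs when SHH1 is absent too. It proposes that some of those regions need SHH1. The hypersiR2 counts differed from the blots, with *zmp-2 shh1-1* below *zmp-2* in every library as RPMR and as RPM. At hypersiR1 these genotypes overlapped on both scales. Why blot and counts differ at hypersiR2 was not tested.

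**Figure D5:**
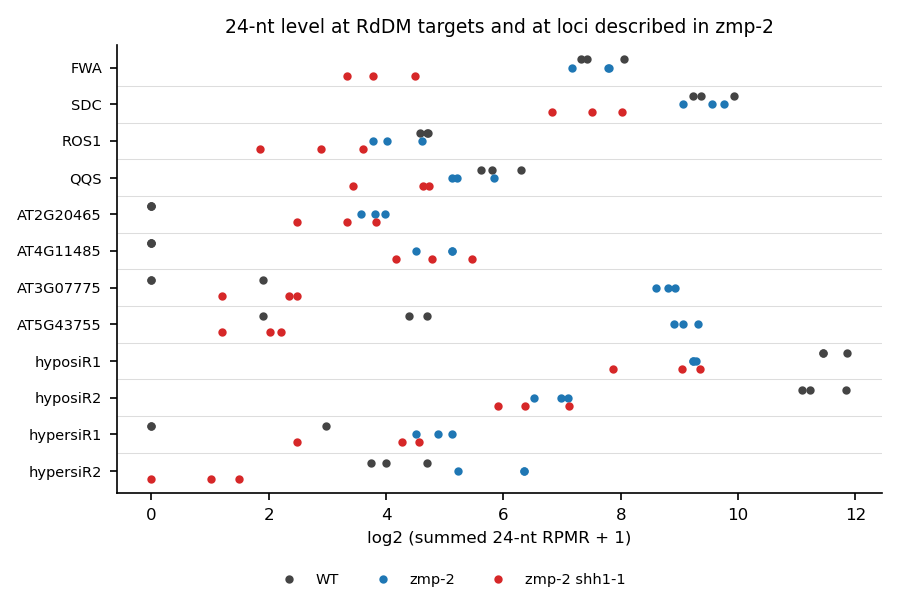
Summed 24-nt level, as log2 of RPMR plus 1, in each library (points, n = 3 per genotype) at 4 RdDM target genes with 1 kb upstream, 4 example genes and 4 RNA blot templates. FWA, SDC, AT3G07775, AT5G43755 and hypersiR2 have *zmp-2 shh1-1* below *zmp-2* in every library, as they do per mapped read; at hyposiR1 and hyposiR2 these genotypes overlap on this rRNA scale.

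Small RNAs made without Pol IV were also counted. At 8 *TAS* genes, whose transcripts give 21-nt trans-acting siRNAs, 7 of 43 tested 21-nt windows were lower (16.3%, where 43.6% of all 21-nt windows were) and none higher with the rRNA scale, but none lower and 5 higher with total reads. Their summed 21-nt level was 54914, 77001 and 47051 RPMR in WT and 47102, 36516 and 16256 in *zmp-2 shh1-1*, with overlap (log2 ratio −0.94, exact permutation p = 0.2, adjusted 0.21). At miRNA genes, of 358 tested 21-nt windows at 326 genes, 92 were lower (25.7%) and 11 higher (3.07%, where 3.51% of all 21-nt windows were) with the rRNA scale, and 21 lower and 85 higher with total reads. Their summed level was 494408 ± 55427 RPMR for WT and 334560 ± 75638 for *zmp-2 shh1-1* (SD over 3 libraries), without overlap (log2 ratio −0.58, exact permutation p = 0.1, adjusted 0.147).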

How the data were processed

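Small RNA libraries of inflorescence total RNA were sequenced by the study, and per its methods adapters were trimmed, reads from rRNA, tRNA or snoRNA genes were set aside with Bowtie (version 1.1.0 in the submitters' processing notes), and ShortStack placed the rest on TAIR10 allowing no mismatch, multi-mapping reads being placed by the density of nearby unique reads. The authors deposited, per library, 100-bp window and read length, whole-number counts that were not normalized, with RPM values (counts per M mapped reads, M standing for mega) and a score, RPMR, the count per M 45S rRNA reads. Both were found to be the count times 1 factor per library, from which mapped and rRNA read numbers were computed. A window that a file does not list was given a count of 0. A scale set by rRNA fragments follows how much of them entered a library, and placement of repeat reads affects single copies.

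Windows with at least 10 counts over the 6 libraries were tested with edgeR (version 4.0.16, R version 4.3.3; glmQLFit and glmQLFTest, library size the 45S rRNA reads), each read length apart. Standard errors were computed from the fold change and the F statistic. The procedure was tested on simulated data. Batch A fits used their own WT libraries. Library-level values were compared by exact two-sided permutation tests with Benjamini-Hochberg adjustment. Intervals are 95% exact binomial ones. Intervals and floors cover counting error only, because PCR copies of a molecule are not told apart. Pericentromeres were runs of 100-kb bins around the bin of lowest coding coverage, smoothed over 11 bins, with coverage under 0.5 of the chromosome median. Gene models came from RefSeq TAIR10.1. Windows of the organelles (704 tested, 77 lower) entered the fits and the totals over all windows but no count by compartment. Transposon classes were not analysed here. Alternatives were total-read, miRNA-based, TMM and DESeq2 (version 1.42.0) library sizes, filters of none and 30 counts, unique windows, a replicate block, a compartment limit of 0.75 and leaving out each library. Tables and plots were made in Python version 3.11.15 (packages matplotlib 3.10.9, scipy 1.17.1, pandas 2.3.3, numpy 2.4.6).

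Named windows were the 5 loci of smallest FDR without group overlap per direction and compartment (at most 1 per 10 kb), the longest locus of each, and fixed lists of mutated genes, RdDM targets, study examples, blot templates, *TAS* genes and miRNA genes. The members and lists were chosen with earlier results of these data known.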

Additional observations from a re-analysis of the deposited data

How the results depend on the processing

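The scale between libraries changed the counts of calls. Windows lower and higher in *zmp-2 shh1-1* numbered 23720 and 11188 with total mapped reads, 22639 and 12629 with TMM and 14684 and 5761 with DESeq2 for 24 nt, and 5016 were higher with miRNA windows as the scale. Of all 24-nt calls, 5.11% were gains with rRNA and 32.1% with total reads. For 21 nt the counts were 4119 and 2893 (total reads), 4651 and 2214 (TMM), 2525 lower (DESeq2) and 1215 higher (miRNA). For 22 nt they were 7169 and 4295, 7138 and 4286, 4458 and 1500, and 1849 higher. For 23 nt they were 1853 higher (total reads), 11567 and 4027 (TMM), 7277 and 1500 (DESeq2) and 798 higher (miRNA). Log2 ratios of abundance became −0.52 (total reads) and −1.25 (miRNA) in arms, 0.0566 and −0.67 in pericentromeres, −1.01 and −1.73 at *zmp-2* hypo-DSRs and 1.96 and 1.23 at hyper-DSRs, or 0.22 at hyper-DSRs called with total reads. DESeq2 changes the test as well as the scale, so its counts are not an effect of the scale alone. The cause of the other shifts was not tested.

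Without a count filter 1247, 131, 250 and 180 windows were higher for 24, 21, 22 and 23 nt. A filter of 30 counts, which tests fewer windows, left 26330 and 1387, 2615 and 237, 4825 and 414, and 9013 and 181 lower and higher. Unique windows alone gave 21052 and 1338, 4227 and 114, 6558 and 193, and 10758 and 147. The lost percent of arms minus pericentromeres, 33.7 points, was 19.5 with DESeq2 and 6.66 without a filter. The gained percent, 0.391 points higher in arms, reversed to −5.94 (total reads), −1.30 (miRNA), −6.84 (TMM), −2.12 (DESeq2), −0.0103 (no filter), −1.35 (30 counts) and −0.354 (without *zmp-2 shh1-1* replicate 3), and was 2.88 in unique windows. The 24-nt share among 21- and 24-nt reads alone differed by −9.77 points. The arm share differed by −6.42 points with the looser compartment limit and −0.208 in unique windows. Chosen after seeing the data, repeated windows gave −23.8 points and an arm log2 ratio of −2.37, and leaving out the 100-kb bin gave −8.79 points. The comparison of *zmp-2 shh1-1* with *zmp-2* at batch A sets and the RPM levels of sets and lists were also chosen after seeing the data. Without a count filter the arm minus pericentromere median log2 fold change reversed from −1.50 to 0.64.

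Leaving out each library gave 31957 to 43055 windows lower and 1300 to 2750 higher for 24 nt (1300 without WT replicate 1 and 1391 without WT replicate 3), 4507 to 7058 and 198 to 542 for 21 nt, 7786 to 11590 and 358 to 853 for 22 nt, and 16029 to 21812 and 209 to 395 for 23 nt. The gained percent of arms minus pericentromeres ranged from −0.354 to 0.431. Same-numbered WT and *zmp-2 shh1-1* libraries did not deviate together (correlations −0.00137, −0.00485 and 0.0133), so the numbers do not pair them, and with a replicate block 37208 windows were lower and 1479 higher for 24 nt, and 350, 462 and 234 higher for 21, 22 and 23 nt. All 23 named windows kept direction and call under every alternative in which they were tested.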
